A study of Bos taurus with 8 samples.

Results

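A set of 10 genes of the endoplasmic reticulum (ER) was followed in the rumen papillae of lactating dairy cows: the chaperones and folding enzymes HSPA5, HSP90B1, CALR, CANX, PDIA3 and PDIA4, and the unfolded protein response genes XBP1, ATF4, DDIT3 and HERPUD1. The 10 genes were chosen by name, and a gene was measured where a non-control array probe carried a RefSeq accession of that gene in the bovine reference. This gave 1 probe each for 6 of the 10 genes, out of 7788 genes named on the array in the same way. CANX, PDIA4, ATF4 and HERPUD1 had no probe that matched by this route and are not analysed here.

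Secretory and membrane proteins fold inside the ER, where chaperones hold unfinished chains and oxidoreductases form their disulfide bonds. When unfolded protein builds up, the sensors ERN1, EIF2AK3 and ATF6 start the unfolded protein response. This response slows translation and raises the transcription of chaperones and of factors such as XBP1 and DDIT3. The rumen papilla is a leaf-shaped outgrowth of the rumen wall, with a stratified squamous epithelium over a core of connective tissue and vessels. Its epithelium absorbs the acids of fermentation.

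The samples came from 4 ruminally cannulated Holstein cows, all female, in a crossover of 2 diets and 2 periods. The low-concentrate diet (LC) held 40% concentrate and the high-concentrate diet (HC) 70%. Cows 1 and 2 received LC in period 1 and HC in period 2, and cows 3 and 4 received the diets in the other order. Papillae were excised 4 h after feeding on day 21 of each period, which gave 4 LC and 4 HC samples, each on its own single-colour array. All cows had eaten a low-concentrate ration before the trial, no cow stayed on 1 diet throughout, and the tissue was whole papillae and not isolated epithelium. In whole tissue, fewer cells of a type and less RNA per cell cannot be told apart.

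The median spot intensity was 92.1 to 132 over the 8 arrays, and 76.9 to 81.2% of the 21475 probes lay well above background by the scanner software's test and are called detected here. The 6 probes were detected on every array, and no spot was saturated. Each period lay on a slide of its own, so period and slide cannot be told apart. In the deposited normalized table the columns of cows 1 and 2 held each other's arrays on both diets (after exchange, the 6 genes differed from the scanner values by at most 0.039 log2 units). The names of cows 1 and 2 may therefore be exchanged throughout. These cows were always on the same diet in the same period, so the comparisons of diets, of periods and of the pair of cows 1 and 2 with cows 3 and 4 are the same under either naming. Of the tissue markers, KRT14 (a keratin of basal cells) and IVL (the cornified envelope protein involucrin) were detected on every array. The probe of TP63, a transcription factor of basal cells, was not well above background on any array, nor was that of POU2AF1, a coactivator of B and plasma cells.

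Levels below are log2 signals after quantile normalization, the mean of 2 spots of the probe, and are compared only within a gene. HSPA5 (NM_001075148) encodes BiP, the abundant ER member of the HSP70 family that binds nascent chains and holds the stress sensors inactive. On the LC diet its level was 14.34, 14.62, 13.49 and 14.25 in cows 1 to 4. On the HC diet it was 14.07, 14.63, 13.82 and 14.10 in the same cows. The diets overlapped, with cow 3 lowest and cow 2 highest on both. The level was higher on HC in 2 of 4 cows, and the mean was 14.15 ± 0.34 (SD, n = 4) on HC and 14.18 ± 0.48 on LC. The log2 fold change of -0.02 had a 95% interval of -0.55 to 0.51, which is a fold change between 0.681 and 1.42. A two-sided exact permutation of the 8 arrays gave p = 1, and limma an adjusted p = 1.00.

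HSP90B1 (NM_174700) encodes GRP94, the HSP90 of the ER, which folds clients such as integrins and Toll-like receptors. On LC it was at 14.50, 14.65, 14.00 and 14.11 in cows 1 to 4. On HC it was at 14.54, 14.46, 14.28 and 14.52. In all, 3 of the LC values lay outside the narrower HC range, 2 of them below it. HC exceeded LC by 0.41 in cow 4, 0.27 in cow 3 and 0.04 in cow 1, and fell short by 0.19 in cow 2. The mean difference of 0.13 (interval -0.11 to 0.38) was within the spread between arrays (exact permutation p = 0.429).

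CALR (NM_174000) encodes calreticulin, the soluble lectin chaperone that binds calcium and glucose-tagged glycoproteins. The LC values were 15.61, 15.56, 15.28 and 15.43 in cows 1 to 4. The HC values were 15.61, 15.82, 15.25 and 15.45. In cows 1, 3 and 4 the diets differed by at most 0.03, and in cow 2 HC was higher by 0.26. The log2 fold change was 0.06 (interval -0.19 to 0.30, exact permutation p = 0.686).

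PDIA3 (NM_174333) encodes ERp57, the disulfide isomerase that works on the glycoproteins held by calreticulin and calnexin. It had the widest spread of the 6 genes. On LC its level was 11.13, 11.14, 10.25 and 10.22 in cows 1 to 4. On HC it was 10.03, 11.06, 9.82 and 10.88. Within cows the difference ran from -1.10 in cow 1 to 0.65 in cow 4, and the diets overlapped. The log2 fold change was -0.24 with an interval of -0.97 to 0.50 (exact permutation p = 0.514), so a fall to 0.509 of the LC level lies within it. It turned to 0.02 when the HC array of cow 1 was left out and to 0.03 when that of cow 3 was.

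XBP1 (NM_001034727) encodes the transcription factor that ERN1 activates by splicing its mRNA. The probe gave the amount of XBP1 mRNA, and the spliced form was not measured separately. The LC values were 12.63, 12.91, 12.06 and 12.75 in cows 1 to 4. The HC values were 12.72, 12.69, 12.38 and 12.19. HC was higher in cows 1 and 3 and lower in cows 2 and 4, and all HC values lay within the LC range. The log2 fold change was -0.09 (interval -0.51 to 0.33, exact permutation p = 0.743).

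DDIT3 (NM_001078163) encodes CHOP, a transcription factor that accumulates under prolonged ER stress and promotes cell death. On LC it was at 8.07, 8.30, 8.48 and 8.29 in cows 1 to 4. On HC it was at 8.32, 8.55, 8.34 and 8.49. HC was higher in cows 1, 2 and 4, by 0.20 to 0.25, and lower by 0.14 in cow 3. The log2 fold change was 0.14 (interval -0.13 to 0.41, exact permutation p = 0.143). With 4 arrays against 4 the smallest exact p is 0.0286. This permutation, here and below, exchanged the arrays freely and ignored that each cow was measured on both diets. The adjusted limma p was 1.00 for each of the 6 genes.

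**Figure D1:**
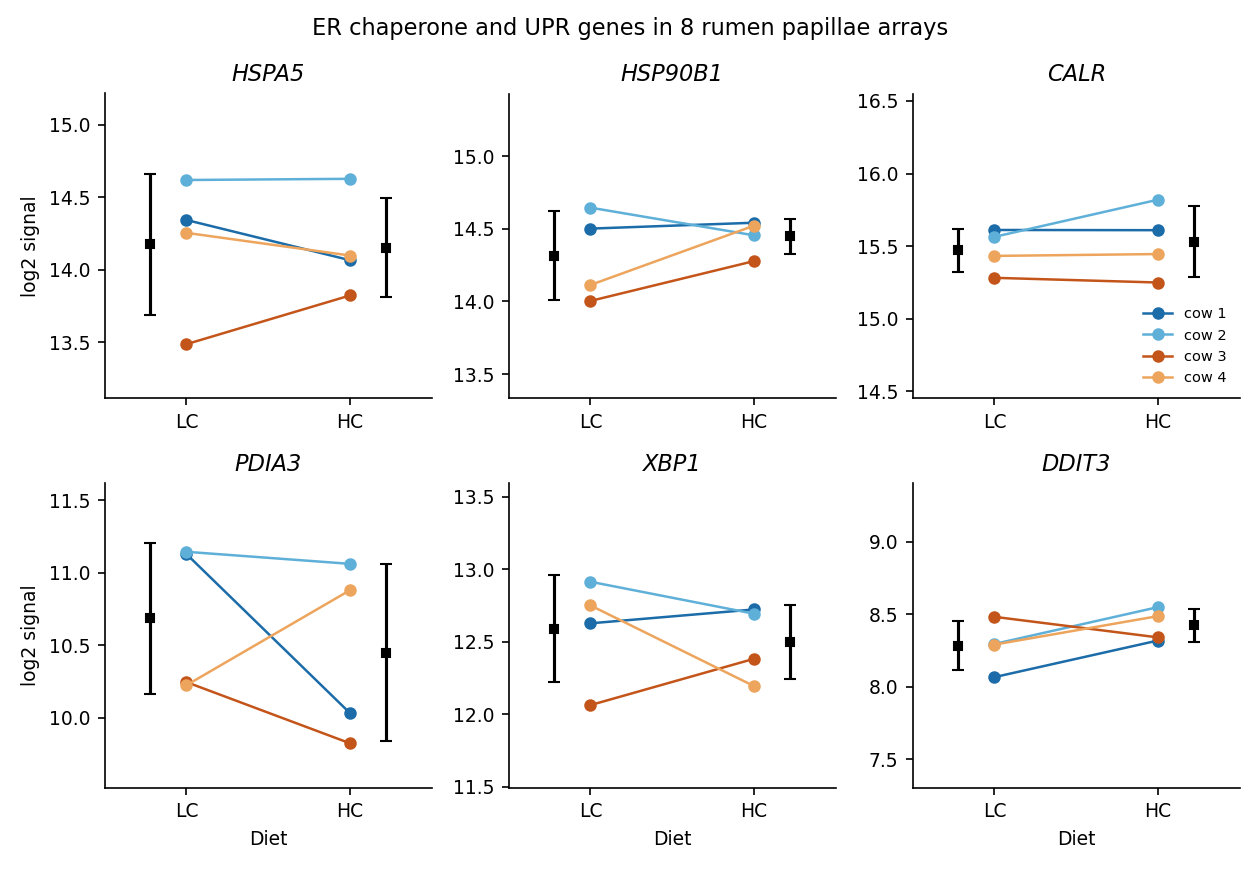
Log2 signal (y axis, with the same span in each panel) of the 6 measured genes on the LC and HC diets (x axis), with 1 line per cow and black squares for the mean ± SD of 4 arrays. The lines cross in both directions and the SD bars of the diets overlap in each panel, while cow 3 is the lowest or next to lowest in each panel but that of DDIT3.

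None of the 6 genes passed the study's rule for a difference between diets (a fold change of at least 1.5 with an unadjusted p under 0.05), against 0.922% of all probes. None had an unadjusted p under 0.05, against 3.65% of all probes, and none an adjusted p under 0.05 (Benjamini-Hochberg over all probes), against 0% of all probes. For none of them were the arrays of the diets apart, against 1.6% of all probes. Their fold changes lay between -0.24 and 0.14 on the log2 scale with a median of 0.02, and 3 of 6 were above 0. For 5 of the 6 genes the whole 95% interval lay within 1.5-fold in either direction (PDIA3 was the exception), against 79% of the probes detected on every array. None of the 6 passed the rule in any of the 20 alternative settings.

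Spots of the same probe on the same array differed by a median of 0.14 log2 units for HSPA5, 0.10 for HSP90B1 and 0.04 to 0.06 for the other 4 genes, before normalization. The SD over the 8 arrays was 0.54 for PDIA3, 0.39 for HSPA5, 0.30 for XBP1, 0.23 for HSP90B1, 0.19 for CALR and 0.15 for DDIT3. Among the probes detected on every array, 95.9% had a lower SD than PDIA3, 88.1% a lower one than HSPA5 and 29.1% a lower one than DDIT3.

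The wider ER machinery was read from 111 other genes in 8 lists, of which 63 had a probe and 62 were detected on every array (the exception was CLGN, a chaperone best known from the testis). None of the 63 passed the rule for diet, against 0.922% of all probes, and 1 (1.59%) had an unadjusted p under 0.05, against 3.65%. With the cow as a block this count was 2 (3.17%, against 5.87% of all probes), SSR1 being added. With the cow as a random block it was 4 (6.35%, against 7.35%), CNPY4 and FKBP2 being added too. It was 0 without the interaction term or with an intensity trend, and none of the 63 had an adjusted p under 0.05 in any of these fits. Their log2 fold changes ran from -0.32 to 0.34 with a median of -0.01, beside 0.00 over all probes.

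That 1 gene was PPP1R15A (GADD34), the phosphatase subunit that reverses the translational arrest set by EIF2AK3. Its LC values were 5.30, 5.77, 5.95 and 5.91 in cows 1 to 4. Its HC values were 5.76, 5.995, 6.30 and 6.21, higher than on LC in 4 of 4 cows by 0.23 to 0.46. The log2 fold change was 0.34 (interval 0.02 to 0.65), below the 1.5-fold limit, with a limma adjusted p = 1.00 and an exact permutation p = 0.143, the arrays of the diets overlapping. The unadjusted p was no longer under 0.05 when any of 6 of the 8 arrays was left out, and the fold change was 0.22 without the LC array of cow 1. EIF2S1, the translation factor that PPP1R15A restores, had a log2 fold change of -0.13 in the same list, and ATF3, which is also an immediate early gene, had an interval of -1.30 to 1.45.

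For the rest of these lists the 2 genes of lowest p in each are given, so they stand at the edge of their lists by choice. Among the sensors and the proteases that cut ATF6, 4 of 7 genes were measured. EIF2AK3 (PERK) had a log2 fold change of 0.15, and of 0.16 by its dimmer probe. ATF6B, a relative of ATF6, had one of 0.10 that rested on cow 2 (0.34, beside 0.02 in each of the others). The value of ATF6B was 0.002 without the HC array of that cow. Of 10 measured cochaperones, CNPY4, related to a chaperone of Toll-like receptors, was lower on HC in 4 of 4 cows with a mean of -0.32, and SEC63, the cochaperone that couples HSPA5 to the translocation channel, had a value of 0.14. Of 10 oxidoreductases, TXNDC12 had a value of 0.09. TMX3 gave 0.11 by its brighter probe and 0.01 by its other probe, both detected on every array.

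In glycan quality control, the cargo receptor partners MCFD2 and LMAN1 had values of -0.11 and -0.10. These were -0.04 for MCFD2 without the LC array of cow 4 and -0.004 for LMAN1 without the HC array of cow 2. Of 12 genes of ER-associated degradation, the lectin OS9 had a mean difference of 0.11 and differed by 0.01, 0.06, 0.21 and 0.16 in cows 1 to 4. Its exact permutation p = 0.0286 is the smallest for 4 arrays against 4 when the pairing by cow is ignored. OS9 was the 1 gene of the 63 whose arrays did not overlap between the diets, which is 1.59% beside 1.6% of all probes. DERL2, a channel component, had a value of 0.10 that rested on cow 1 (0.31, beside 0.003 to 0.05 in the others) and was 0.02 without the LC array of that cow. Of 6 translocation genes, SSR1 of the translocon-associated complex was lower in 4 of 4 cows with a mean of -0.27, and its partner SSR4 had a value of -0.18. Of 9 prolyl isomerases and KDEL receptors, FKBP2 had a value of -0.24 and FKBP14 one of -0.32. The dimmer probe of FKBP14, also detected on every array, gave -0.21. Leaving out 1 array moved the value by over 1.5 times for 14 of these 16 genes, PPP1R15A and EIF2S1 included (the exceptions were OS9 and TXNDC12), and turned the sign of none. The adjusted limma p was 1.00 for each of the 16.

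**Figure D2:**
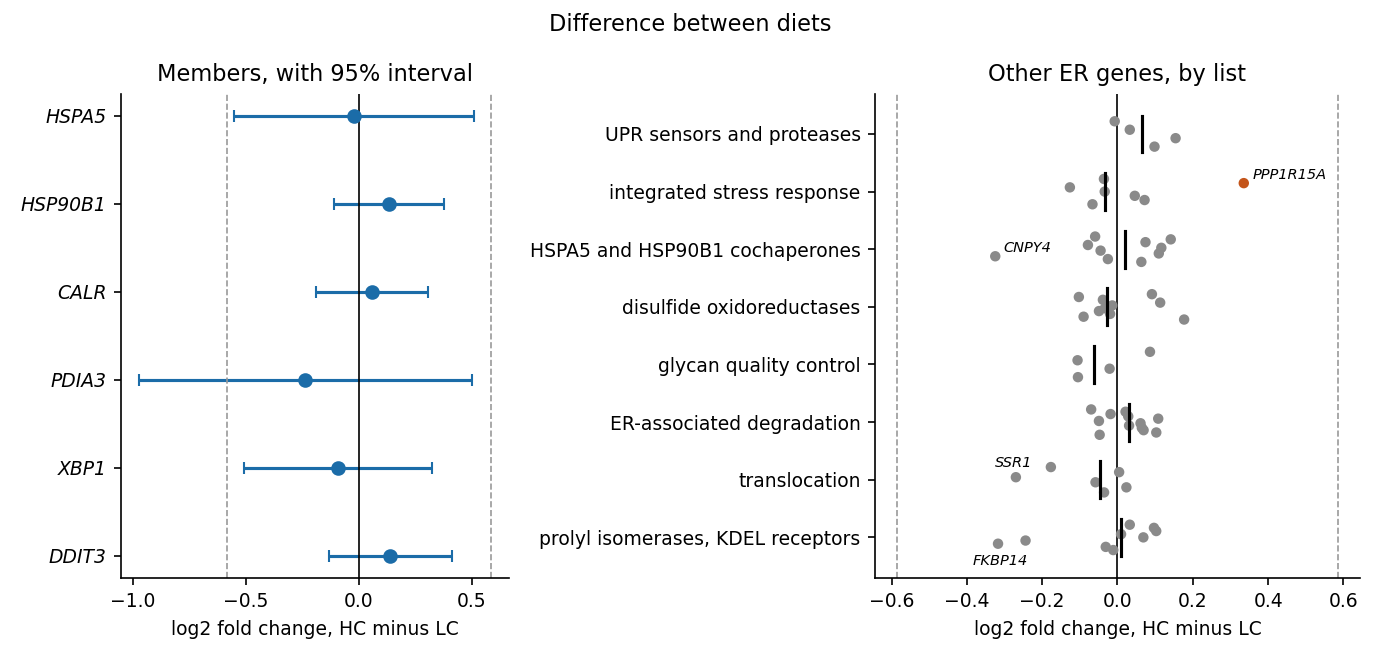
Log2 fold change of HC over LC (x axis) for the 6 measured genes with 95% intervals (left) and for 62 other ER genes, 1 point each, in 8 lists (right, with orange for an unadjusted p under 0.05 and a black bar at each list's median). Dashed lines mark 1.5-fold. All points lie inside the dashed lines, and of the 6 intervals only that of PDIA3 reaches past them.

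Period 2 minus period 1 gave log2 differences of -0.11 for HSPA5, -0.21 for HSP90B1, 0.07 for CALR, -0.35 for PDIA3, 0.03 for XBP1 and 0.11 for DDIT3. None of the 6 passed the fold and p rule, against 3.86% of all probes, none had an unadjusted p under 0.05, against 12.3%, and none an adjusted p under 0.05, against 0.0419%. HSP90B1, of lowest p (limma adjusted p = 0.49), had an unadjusted p under 0.05 with normexp background correction, with 75th percentile scaling, with an intensity trend and without the HC array of cow 3, at -0.21 to -0.28. Its adjusted p was 0.25 to 0.40 in these. Of the other 63 genes, 4 (6.35%) had an unadjusted p under 0.05 and none passed the rule. These 4, chosen after their values were seen, had higher levels in period 2: TMX3 by 0.42, the asparagine synthetase gene ASNS (a target of ATF4) by 0.41, SELENOS by 0.31 and FKBP11 by 0.28. With the cow as a random block, ASNS had an adjusted p = 0.044 (limma), the 1 adjusted p under 0.05 of the 6 and the 63 genes in the contrasts of diet, period and cow pair over the fits run. Of the 4 plasma cell markers, JCHAIN (the joining chain) had a period difference of 0.75 and passed the rule (limma adjusted p = 0.29), while CD79A had -0.06, PRDM1 0.01 and POU2AF1 -0.28, a median of -0.03. Of the 5 leukocyte markers, CD3E (a T cell receptor component) had 0.50 (limma adjusted p = 0.25), LYZ 0.20, CD68 0.17, CD14 0.05 and CD74 -0.07. The 6 measured heat shock proteins of the cytosol were between -0.14 and -0.50, with none at an unadjusted p under 0.05. Their part in the differences of the ER genes was not tested.

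The arrays were also compared by cow. HSPA5, HSP90B1, CALR, PDIA3 and XBP1 were all 5 above their means on both arrays of cow 2 and on the LC array of cow 1, and none of the 5 was above its mean on either array of cow 3. On the HC array of cow 1, 3 of the 5 were above the mean, and on each array of cow 4, 2 of them. HSPA5 averaged 14.62 in cow 2, 14.20 in cow 1, 14.18 in cow 4 and 13.66 in cow 3. The order was cow 2, 1, 4, 3 for each of these 5 genes, and the means of cows 1 and 4 were close for HSPA5 and for PDIA3 (10.58 and 10.55), closer than the LC and HC arrays of either cow. DDIT3 was apart from this order, lowest in cow 1 at 8.19 and between 8.39 and 8.42 in the others.

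**Figure D3:**
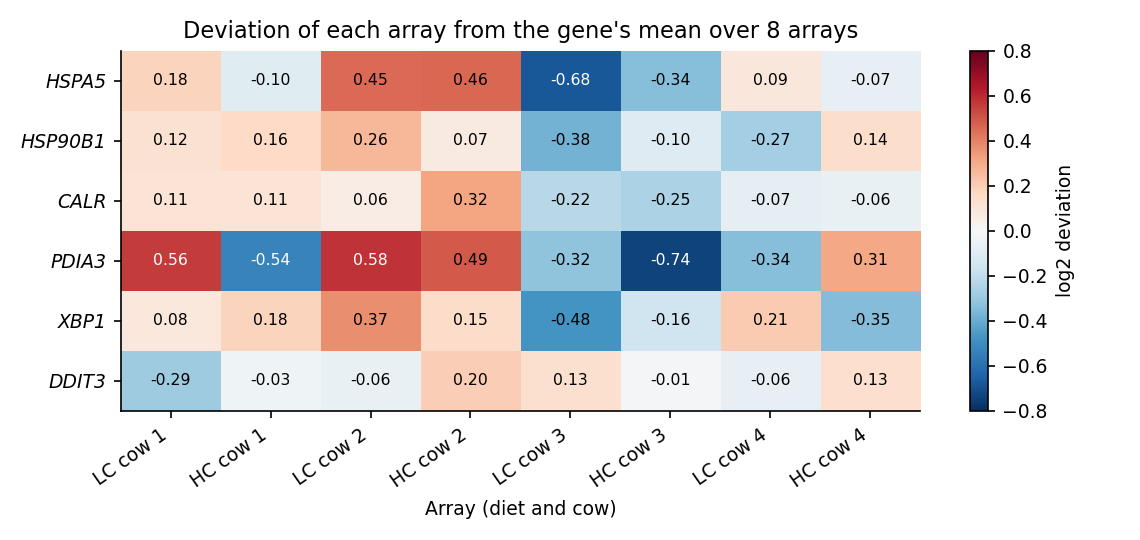
Deviation of each array's log2 signal from the gene's mean over the 8 arrays (colour and printed value), with the 6 genes in rows and the arrays in columns by cow. The columns of cow 2 are above 0 and those of cow 3 below 0 for the 5 genes other than DDIT3, with the lowest value, -0.74, for PDIA3 on the HC array of cow 3.

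A moderated F test over the 4 cows, in a fit with cow, diet and period, gave HSPA5 an adjusted p = 0.24. HSPA5 was the 1 of 6 genes with an unadjusted p under 0.05, against 16.3% of all probes. This fit left 2 residual degrees of freedom.

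In a crossover of this form the interaction of diet and period is the difference between the pair of cows 1 and 2, which began on LC, and the pair of cows 3 and 4, which began on HC. The order of the diets and the animals cannot be told apart. Cows 1 and 2 were higher by 0.50 for HSPA5 (interval -0.03 to 1.03), 0.31 for HSP90B1 (0.07 to 0.55) and 0.30 for CALR (0.05 to 0.54). The difference was 0.55 for PDIA3 (-0.19 to 1.29), 0.39 for XBP1 (-0.03 to 0.81) and -0.09 for DDIT3. Of the 6 genes, 5 were thus higher in cows 1 and 2, and the median of the 6 was 0.35, beside 0.00 over all probes.

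None of the 6 passed the fold and p rule for the cow pair, against 2.93% of all probes. HSP90B1 and CALR had an unadjusted p under 0.05, against 10.2% of all probes, or 5% counting those higher in cows 1 and 2, and no gene had an adjusted p under 0.05, against 0.0373% (limma adjusted p = 0.43 and 0.44 for these 2). CALR was the 1 gene whose arrays were apart, at 15.56 to 15.82 in cows 1 and 2 and 15.25 to 15.45 in cows 3 and 4, against 5.63% of all probes. The fit takes the 8 arrays as independent, although a cow has 2 of them, which makes its p-values too small and its intervals too narrow. An exact test of 2 cows against 2 cannot go below 0.333. In a limma fit on the 4 cow means, added after seeing the data, neither HSP90B1 nor CALR had an unadjusted p under 0.05, and XBP1 was the 1 of 6 genes that did (adjusted p = 0.82), against 5.96% of all probes. Single arrays also moved the count: HSPA5 passed the rule without the LC array of cow 4 (0.69) and without the HC array of cow 1 (0.64), and PDIA3 without the HC array of cow 1 (0.80) or of cow 4 (0.81).

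Within period 1, where cows 1 and 2 were on LC, HC minus LC was -0.52 for HSPA5, -0.17 for HSP90B1, -0.24 for CALR, -0.78 for PDIA3 and -0.48 for XBP1. Within period 2, where they were on HC, it was 0.48, 0.44, 0.36, 0.31 and 0.30 for the same genes. For these 5 genes the contrast of diets thus had opposite signs on the 2 slides, each of which compared different cows. DDIT3 was higher on HC on both slides, by 0.23 and 0.05.

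Of the 63 other ER genes, 7 were higher and 1 was lower in cows 1 and 2 at an unadjusted p under 0.05, none at an adjusted one. These 8 are 12.7% of the 63, beside 10.2% of all probes. CRELD2, an ER protein whose gene is known as a target of the unfolded protein response, was the 1 that passed the fold and p rule (1.59%, beside 2.93% of all probes). Its level was 10.85 and 10.79 on the arrays of cow 1, and 11.21 and 11.23 on those of cow 2. In cow 3 it was 9.94 on LC and 10.51 on HC, and in cow 4 10.33 and 10.25, so the pairs did not overlap. The difference of 0.76 had an interval of 0.36 to 1.16 (limma adjusted p = 0.34, or 0.82 on the cow means) and lay between 0.65 and 0.87 without any 1 array.

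The others, named after their values were seen, were PDIA5 at 0.54, DNAJB11 at 0.48, LMAN1 at 0.37, CHAC1 at 0.36, CNPY3 at 0.34 and DNAJC3 at 0.29, with adjusted p between 0.36 and 0.49. DNAJB11 and DNAJC3 are J-domain cochaperones of HSPA5, PDIA5 is a disulfide isomerase, and CHAC1, which breaks down glutathione, is a target of the ATF4 branch. On the cow means, 4 of the 63 genes (6.35%, beside 5.96% of all probes) had an unadjusted p under 0.05, namely CRELD2, PDIA5, DNAJB11 and CHAC1. A dimmer probe of PDIA5, detected on 7 of 8 arrays, gave 0.29 (limma adjusted p = 0.71). PPP1R15A, in contrast, was lower in cows 1 and 2, with a difference of -0.39 (limma adjusted p = 0.44). By list, 9 of 10 cochaperones were higher in cows 1 and 2 with a median of 0.19. Of the 10, 4 (40%) were higher at an unadjusted p under 0.05, beside 10.2% of all probes, or 5% counting those higher. In each of the other lists at most 1 gene was higher at such a p. The cochaperones are thus singled out after the values were seen. On the cow means, CRELD2 and DNAJB11 were the only cochaperones under 0.05. Of 12 genes of ER-associated degradation 6 were higher, with a median of 0.00 and none at an unadjusted p under 0.05. The 4 glycan quality control genes above background were all higher, PRKCSH by 0.38, LMAN1 by 0.37, MCFD2 by 0.08 and LMAN2 by 0.07. CLGN, which was not above background, is left out of this count. Of 9 prolyl isomerases and KDEL receptors, 7 were higher (median 0.08). So were 5 of 7 genes in the list of PPP1R15A (0.22) and 3 of 4 sensors and proteases (0.07). Of 10 oxidoreductases 6 were higher (0.06), and of 6 translocation genes 3 were (0.03).

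**Figure D4:**
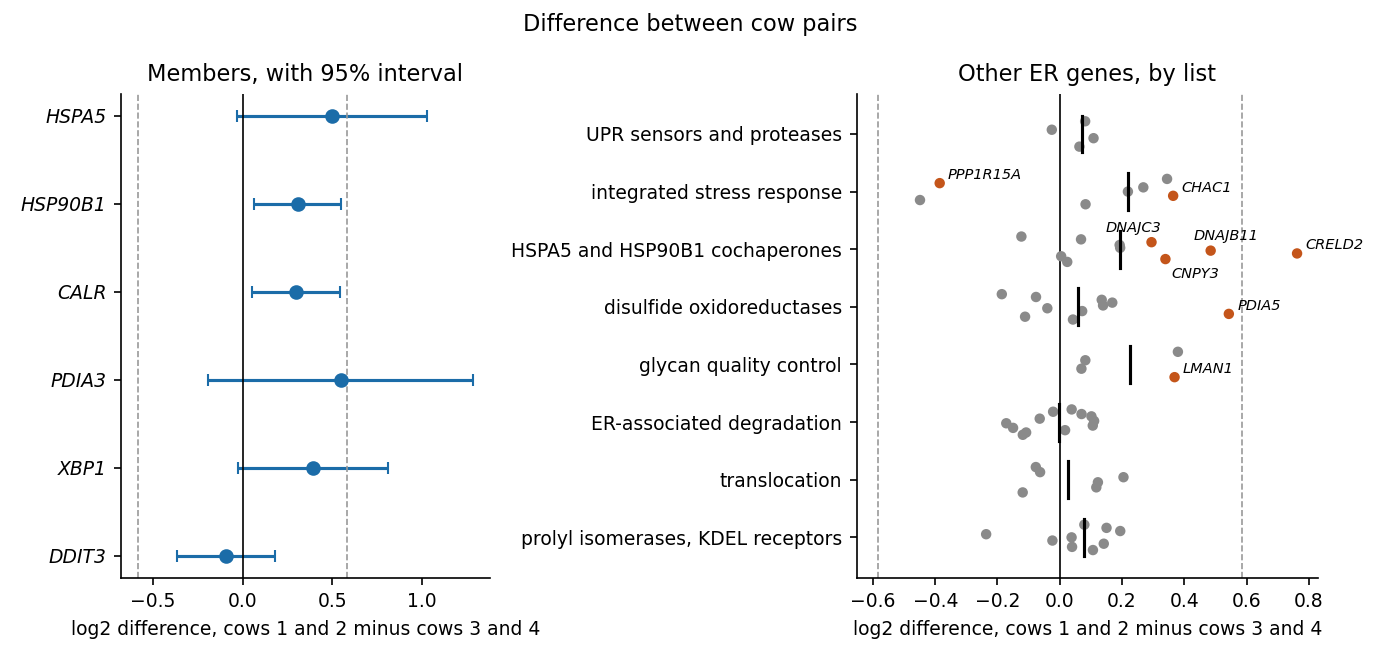
Log2 difference between the arrays of cows 1 and 2 and those of cows 3 and 4 (x axis) for the 6 measured genes with 95% intervals (left) and for 62 other ER genes in 8 lists (right, with orange for an unadjusted p under 0.05 and a black bar at each list's median). Dashed lines mark 1.5-fold. CRELD2 at 0.76 is the 1 point of the right panel outside them, and the points of ER-associated degradation lie close to 0.

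Markers of other cells were compared in the same way. The 5 measured leukocyte markers were all higher in cows 1 and 2, with LYZ (lysozyme) higher by 0.69 (past the rule, limma adjusted p = 0.39) and a summed log2 level of 11.26 to 11.85, against 10.87 to 11.52 in cows 3 and 4. The 5 smooth muscle markers were also higher, by 0.01 to 0.61 with none at an unadjusted p under 0.05 (summed level 14.13 to 14.47 against 13.93 to 14.22). Of 4 basal epithelial markers above background, COL17A1 had a difference of -0.36 (limma adjusted p = 0.42), ITGB4 of -0.50, ITGA6 of -0.31 and KRT14 of 0.07. The summed level of the list was 17.79 to 18.15 against 17.75 to 18.16. This sum was nearly all KRT14 (mean on LC 17.97, beside 12.20 for COL17A1). Of the 3 plasma cell markers above background, which matter here because such cells are rich in ER, JCHAIN differed by 0.07, CD79A by 0.12 and PRDM1 by 0.00 (limma, adjusted p from 0.70 to 0.99). The summed level of all 4 was 10.90 to 11.10 against 10.80 to 11.04. This sum weighs the brightest probe most, here PRDM1 (mean on LC 10.31, beside 9.16 for CD79A and 5.48 for JCHAIN). Of 6 fibroblast markers 1 was higher, with a median of -0.07 and none at an unadjusted p under 0.05. Of 3 suprabasal epithelial markers, DSG1 differed by -1.11 (limma adjusted p = 0.68), CALML5 by 0.19 and IVL by 0.15. The 1 measured endothelial marker, KDR, differed by -0.32 (limma adjusted p = 0.67). Of 6 measured immediate early genes, which respond to handling, FOS and FOSB both had a difference of -0.55 (limma adjusted p = 0.52 and 0.61). JUN had -0.28, JUNB -0.10, DUSP1 -0.02 and IER2 0.10, and the median of the 6 was -0.19. Of 6 measured heat shock proteins of the cytosol 5 were higher in cows 1 and 2, with a median of 0.08. The part of these in the differences of the chaperones was not tested. For diet, no marker of these lists had an unadjusted p under 0.05, although the 5 leukocyte markers were all higher on HC by 0.11 to 0.32.

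Over the 8 arrays, which share cows, slides and diets, the level of HSPA5 went with that of CALR (Pearson r = 0.82), XBP1 (0.81), PDIA3 (0.73) and HSP90B1 (0.68), and not with that of DDIT3 (-0.20). PDIA3 and XBP1 went together less (0.30). These are descriptions of 8 arrays. Over the 6468 genes detected on every array, the median r with HSPA5 was 0.03, and 2.98% had an r over 0.8. Of the 62 other ER genes, 6.45% did: RNF5 (0.94), SESN2 (0.88), CRELD2 (0.86) and EIF2S1 (0.83). An r under -0.8 was found for 2.69% of the 6468 genes and for 1.61% of the 62, namely KDELR1 (-0.88), and the next lowest of the ER genes were SIL1 (-0.77), an exchange factor of HSPA5, and TXNDC12 (-0.73).

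The genes most like HSPA5 by this measure were MRPS30 (0.97), a protein of the mitochondrial ribosome, TOMM34 (0.95), a cochaperone of mitochondrial import, POLR2D (0.95), a subunit of RNA polymerase II, RNF5 (0.94), a ubiquitin ligase of the ER membrane, and RPTOR (0.94), the scaffold of the mTORC1 kinase complex. The genes most opposed were VPS25 (-0.96), of the endosomal sorting machinery, CBR3 (-0.96), a carbonyl reductase, ST3GAL1 (-0.95), a sialyltransferase of the Golgi, PMP22 (-0.95), a membrane protein of myelin, and SMARCD3 (-0.95), a subunit of chromatin remodelling complexes. RNF5 was thus the 1 gene of the ER lists among the 5 most like HSPA5. Its difference between diets was 0.03 (limma adjusted p = 1.00).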

How the data were processed

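Rumen papillae RNA of 4 cows on 2 diets was measured on 8 Agilent 4x44K bovine arrays. The authors deposited scanner output (Feature Extraction 10.7.3.1) with an intensity per spot, background-subtracted and not normalized between arrays, and with other columns that flag spots as well above background, outlier or saturated. They also deposited a table of quantile-normalized log2 values, used here as an alternative with its columns as named. Exchanging cows 1 and 2 leaves its fit of diet, period and interaction the same. The exchange was made only to compare its values with those of the scanner.

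Outlier and control spots were left out, log2 intensities were quantile-normalized (limma 3.58.1, R 4.3.3), and spots were averaged for each of 21475 probes. Probes were named through their RefSeq accession (ARS-UCD2.0 gene table; 8297 of 10176 probes with an accession matched). The array's annotation (HGSC Btau_3.1) is of another build, so no positions are given. A probe was well above background where all its spots were, and a gene with several probes was represented by the brightest. Diet, period and their interaction, the terms the study's model has, were fitted to every probe with limma (4 residual and 2.26 prior degrees of freedom), and p-values were adjusted by Benjamini-Hochberg over all probes. Counts at a p under 0.05 use the unadjusted limma p, as the study's rule does, and single p-values are adjusted or from exact permutation. The number of arrays limits the precision. The fit was also run on simulated arrays of independent noise without cow effects, which cannot show whether its p-values hold for paired arrays.

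The replicate numbers in the HC sample titles do not follow the cow numbers, so samples were paired by the cow named in their source labels. The deviations of paired samples from the diet means correlated with r = 0.285, 0.298, 0.467 and 0.113 in cows 1 to 4. Between cows r was -0.237 to 0.185 (16030 probes).

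The genes and the lists were chosen with earlier results of these data known. Named are all members with a probe, listed ER genes past the rule in any contrast, the 2 of lowest diet p in each list, and the 5 most and least like HSPA5 by r. Alternatives were other scalings, background corrections, filters, terms and moderations, and leaving out each array. Fits on cow means and the F test over cows were added after seeing the data.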

Additional observations from a re-analysis of the deposited data

Results flagged for a closer look

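In 3 of 66 groups of 4 arrays compared, 1 array stood far from the others of its diet, and chance gives about 1 in 20 such groups. The gap to the nearest array over the whole range was 0.892 for PDIA5 on the LC array of cow 3 (7.42, the others 7.88 to 7.93), 0.893 for RNF5 on the HC array of cow 2 (11.71, the others 11.58 to 11.59) and 0.847 for ATF3 on the HC array of cow 3. None of the 6 measured chaperone and unfolded protein response genes had such an array.

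The contrast of diets differed between the periods, by the interaction term at an unadjusted limma p under 0.05, for HSP90B1 (period 2 less period 1, 0.61 log2 units) and CALR (0.60). It also did for CRELD2 (1.52), PDIA5 (1.09), DNAJB11 (0.97), LMAN1 (0.74), CHAC1 (0.73), CNPY3 (0.68), DNAJC3 (0.59) and, in the opposite direction, PPP1R15A (-0.77). Each is the difference of the cow pairs given above, counted over both periods, and none had an adjusted p under 0.05.

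For 6 genes, HC minus LC was above 0 in cows 1 and 2 and below 0 in cows 3 and 4. The difference between the pairs was 0.83 for TMX3, 0.82 for ASNS, 0.62 for SELENOS, 0.61 for PDIA5, 0.56 for FKBP11 and 0.38 for DNAJC3. Cows 1 and 2 were on HC in period 2 and cows 3 and 4 in period 1, so each of these differences is also that of the periods, and none of the 6 genes had an adjusted p under 0.05 for period, except ASNS with the cow as a random block.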

How the results depend on the processing

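The count of 0 genes of the 6 past the rule for diet, and of 0 for period, held in each alternative run, leave-outs included. So did the 0 of 63 other ER genes for diet. With the cow as a replicate block, which pairs the samples, these counts were also 0, and the block moved the probes past the rule over the whole array from 198 to 276. That whole-array count was 8 with normexp background correction, 415 with the deposited table, 83 with dim probes filtered out, 105 without variance moderation, and 239 to 404 without 1 array. The cause of these moves was not tested. For the cow pair, 0 to 2 of the 6 genes and 1 to 2 of the other ER genes passed without 1 array. The number of the 6 with an unadjusted p under 0.05 for the pair was 4 with 75th percentile scaling or an intensity trend, 1 on the cow means, and 0 to 4 without 1 array. Of the 63 other ER genes, 8 were at an unadjusted p under 0.05 for the pair, against 16 with normexp, 4 on the cow means and 4 to 12 without 1 array. For period these were 4, against 9 with normexp, 8 with the random block and 6 with an intensity trend or no moderation. With normexp, HSP90B1 had an unadjusted diet p under 0.05 at a log2 fold change of 0.13. Without 1 array, the diet fold change of HSPA5 ran from -0.21 to 0.17, of PDIA3 from -0.50 to 0.027 and of XBP1 from -0.26 to 0.081, each crossing 0. Among the single-gene values followed through every alternative, 7 turned their sign, 5 moved past the rule and 666 did neither. Other values also turned sign without 1 array, such as the diet value of PDIA5 (-0.14 to 0.10) and the pair value of FKBP14 (-0.04 to 0.32). The dimmer probe of FKBP14 gave a pair value of -0.19.

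With 4 cows and 1 sample of each on each diet, a diet effect within 1.5-fold would not have been called by the rule, and for PDIA3 a larger one lies within the interval. The diet value of PPP1R15A was 0.15 with normexp. Normexp used the median spot signal with the local background median. Protein, mRNA splicing and phosphorylation were not measured.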
